A study of Mus musculus with 6 samples.

Results

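The interferon-inducible GTPases are proteins that hydrolyse GTP and are made in quantity when a cell is exposed to interferon, above all interferon gamma. The 10 genes described here, of 13605 genes used, were chosen by name: 7 guanylate-binding proteins (Gbp2, Gbp3, Gbp4, Gbp5, Gbp7, Gbp8 and Gbp9) and 3 immunity-related GTPases (Irgm1, Irgm2 and Igtp). All 10 were in the deposited count table and all 10 passed the filter on low counts. Interferon gamma binds a receptor made of the Ifngr1 and Ifngr2 chains, which carry the kinases Jak1 and Jak2, and its signal reaches genes through a promoter element called GAS. Type I interferons act through a complex that holds Irf9 and binds another element, the ISRE, which IRF1 binds as well. In infected cells the GTPases gather on the membranes around bacteria and parasites and help to break them open. In T cells, mouse Irgm1 is known for protecting CD4 cells from death during an interferon gamma response.

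The samples were regulatory T cells (Tregs, the CD4 T cells that carry Foxp3 and hold immune responses in check) from the livers of untreated mice at 14 months of age, 3 libraries labelled Altre knockout (KO) and 3 labelled Altre WT (wild type). Altre is a long non-coding RNA of Tregs, and the comparison asks which transcripts of ageing liver Tregs differ without it. Altre itself was not analysed here, so the labels were not checked by it, and the sources used here give neither the making of the allele nor the mouse strain. No label ties a library to its own animal, and the p-values therefore rest on a spread among libraries that could be technical. Each library held between 25315425 and 30870786 counts over the genes listed. Foxp3 averaged 108 ± 32.5 CPM in KO and 79.2 ± 7.91 CPM in WT (SD, n = 3 each), Il2ra 434 ± 45.4 CPM in KO and 305 ± 50.03 CPM in WT, and Ctla4 290 ± 48.6 CPM in KO and 264 ± 58.2 CPM in WT, so the 3 defining Treg transcripts were present in both genotypes. CPM is the usual depth-scaled count, here over library totals adjusted with TMM factors. The 7 Treg markers sought were Foxp3, Il2ra, Ctla4, Ikzf2, Cd4, Cd3e and Tnfrsf18. Together they summed to 4317 to 5275 CPM in KO and 3889 to 4270 CPM in WT, with KO replicate 1 the highest. Cd3e (1562 CPM in KO, 1439 CPM in WT) and Cd4 (1081 and 798 CPM) made most of these sums. The sums do not measure Treg purity. Of the 7 markers, 5 had a higher mean in KO and Ikzf2 and Tnfrsf18 a lower one.

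The genes lie in 3 clusters of the mouse genome (GRCm38, GENCODE M21). On the plus strand of chromosome 3 stand Gbp5 (142493978 to 142522344), Gbp7 (142530342 to 142550149), Gbp3 (142560026 to 142573209) and Gbp2 (142620602 to 142638008). On the minus strand of chromosome 5 stand Gbp8 (105014150 to 105139540), Gbp9 (105077630 to 105139539) and Gbp4 (105115767 to 105139586), whose annotated spans overlap. On chromosome 11 stand Irgm1 (48861968 to 48871683, minus strand), Igtp (58199556 to 58207591, plus strand) and Irgm2 (58199618 to 58222782, plus strand), of which Igtp and Irgm2 overlap over 7974 bases. Overlap and duplication limit how reads can be assigned. Of the 50-base windows in a gene's annotated transcripts, 18.1% were also found in another gene for Gbp8, 12.7% for Gbp7, 11.8% for Igtp (all with Irgm2), 8.05% for Gbp9, 7.77% for Irgm2, 7.7% for Gbp4, 3.75% for Gbp3, 2.03% for Gbp2, 1.44% for Gbp5 and 0.31% for Irgm1. The sources used here do not say how the authors counted such reads, so the levels of Gbp8, Gbp7 and Igtp are the least certain of the 10.

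RefSeq promoters (GRCm38.p6, 250 bases before to 50 bases after the start) were given for 7 of the 10, the entries for Gbp4, Gbp8 and Gbp9 being missing. They were searched on both strands for the ISRE core, GAAA followed by any 2 bases and GAAA again, and for GAS, TTCNNNGAA, which reads the same on both strands. The ISRE core was present in 7 of 7 promoters, against 3.44% of all 32851 promoters, and GAS in 4 of 7 (Gbp5, Gbp7, Irgm2 and Igtp), against 8.3%. The stretches below show these elements, 5′ to 3′ on the strand of the gene, with the elements in capitals. They lie upstream of the RefSeq start, which is not always the outer end of the GENCODE span given above. The stretches of Irgm2, Gbp5 and Irgm1 lie inside those spans, and those of Gbp2 and Gbp3 reach into them. An ISRE core on the opposite strand reads as TTTC, any 2 bases and TTTC.
Gbp2, chr3:142620592-142620625, plus strand: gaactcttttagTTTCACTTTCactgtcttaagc
Gbp3, chr3:142559987-142560026, plus strand: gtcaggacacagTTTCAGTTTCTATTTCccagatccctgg
Gbp5, chr3:142496757-142496902, plus strand: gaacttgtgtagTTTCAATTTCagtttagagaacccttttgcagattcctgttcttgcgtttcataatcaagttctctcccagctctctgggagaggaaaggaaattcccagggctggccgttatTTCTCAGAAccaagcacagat
Gbp7, chr3:142530218-142530304, plus strand: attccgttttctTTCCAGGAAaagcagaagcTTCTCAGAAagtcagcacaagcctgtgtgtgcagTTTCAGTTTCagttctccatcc
Irgm1, chr11:48871423-48871462, minus strand: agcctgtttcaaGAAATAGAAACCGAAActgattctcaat
Irgm2, chr11:58214890-58214934, plus strand: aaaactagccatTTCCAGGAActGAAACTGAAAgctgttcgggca
Igtp, chr11:58199499-58199543, plus strand: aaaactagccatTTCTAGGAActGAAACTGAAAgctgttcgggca

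In Gbp3 and Irgm1 a pair of ISRE cores overlapped by 4 bases. In Igtp and Irgm2 a GAS was followed after 2 bases by an ISRE core, and their 45-base stretches were identical at 44 positions, the difference from Igtp to Irgm2 being T16C, counted from 1 at the 5′ end of the stretch and lying inside GAS. This arrangement, looked for after the sequences had been seen, was found in 5 of the 32851 promoters: those of Igtp, Irgm2, Tgtp1, Tgtp2 and Gm12185. Gbp5 had a further GAS that began 245 bases before the start and is not printed. Among 5 further GTPases with a promoter entry, 3 (Tgtp1, Tgtp2 and Gbp2b) held an ISRE core, and no match was found in the windows of Ifi47 and Irgq. A match in letters does not show that a factor binds there.

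**Figure D1:**
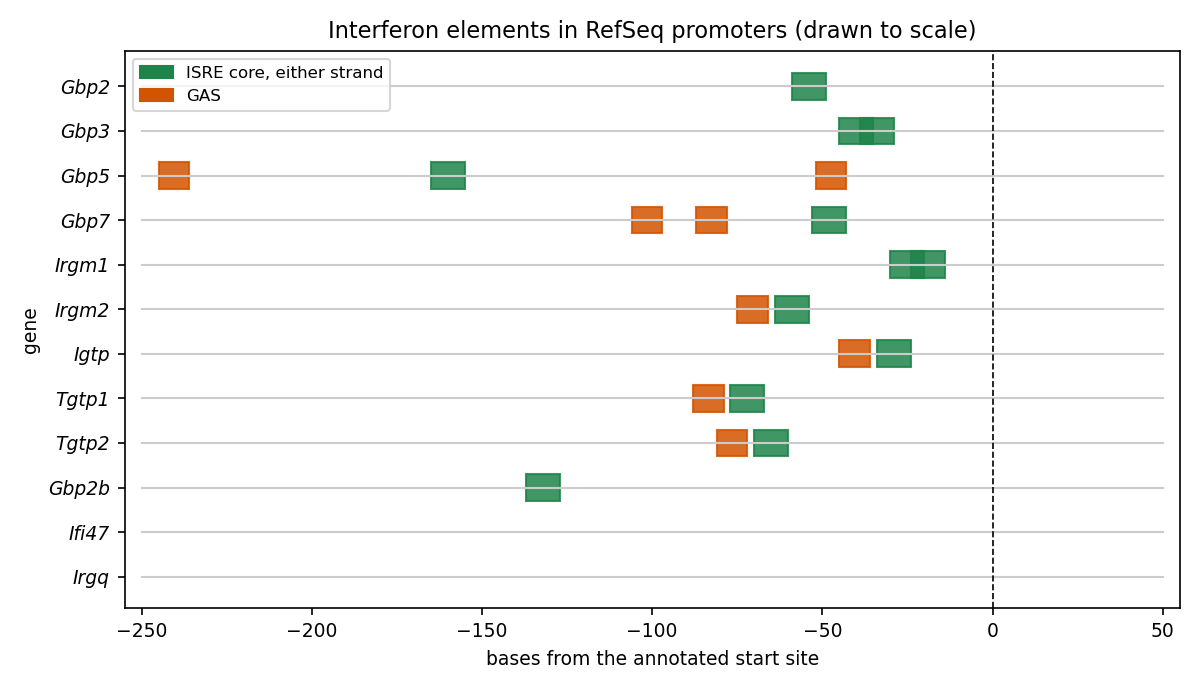
Positions of the ISRE core (green, either strand) and of GAS (orange) in RefSeq promoters of the 7 members with an entry and, below them, of the 5 further GTPases with an entry; the x axis is the distance in bases from the annotated start and each box is drawn to scale. An ISRE core lies in the promoters of the 7 members and of Tgtp1, Tgtp2 and Gbp2b, those of Ifi47 and Irgq hold neither element, and in Irgm2, Igtp, Tgtp1 and Tgtp2 the core lies directly downstream of a GAS.

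Per kilobase of exon, where levels of different genes can be compared, Igtp was the highest of the 10 in both genotypes, at 296 ± 54.1 CPM per kb in KO and 307 ± 2.81 CPM per kb in WT (SD, n = 3 each). Gbp2 was next at 116 ± 10.8 in KO and 126 ± 11.6 in WT, and Gbp5 was the lowest at 2.85 ± 0.531 in KO and 3.98 ± 0.443 in WT, all in CPM per kb. Between them the WT order was Gbp7 (78.5), Irgm1 (58.8), Gbp3 (51.6), Gbp9 (42.8), Gbp4 (32.5), Gbp8 (30.1) and Irgm2 (27.7 CPM per kb). In WT the library ranges of Irgm1 and Gbp3, of Gbp4 and Gbp8, and of Gbp8 and Irgm2 overlapped, so those neighbours were not told apart by their spread. In KO the order differed by the places of Gbp8 (32.1) and Gbp4 (26.2 CPM per kb), and each pair of neighbours from Gbp7 to Irgm2 overlapped. With the longest annotated transcript as the length, Igtp and Gbp2 stayed first and Gbp5 last, Irgm1 (89.2) came before Gbp7, and Gbp4 (53.7) came before Gbp9 in WT.

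In KO Tregs 9 of the 10 GTPases had a lower mean than in WT, by 3.37% (Igtp) to 28.3% (Gbp5), and Gbp8 a higher one. Over all 12789 genes tested a lower mean in KO was found for 49.2%. The median log2 fold change of the 10 (KO over WT) was -0.23, beside 0.00389 over all genes. No member passed an adjusted p of 0.05 (edgeR quasi-likelihood test, Benjamini-Hochberg over all genes tested), where 0% of all genes passed, and the lowest adjusted p of a member was 0.842. In simulated data 3.08% of genes given a 1.5-fold change passed this threshold, over genes of all levels. A member that did not pass was therefore not shown to be unchanged. With an unadjusted p under 0.05, 3 members were lower in KO and 0 higher, beside 3.1% of all genes lower, 2.72% higher and 5.82% in either direction. By DESeq2 46 genes (0.339%) passed the adjusted threshold and no member did, and by limma-voom 0 genes passed. With the replicate number as a block, 0.125% of genes passed by edgeR and 1.85% by DESeq2, again with no member among them. The 95% intervals of 7 of the 10 log2 fold changes included 0. In 3 members every KO library lay below every WT library, beside 4.67% of all genes, and in 0 members every KO library lay above, beside 5.6%. The number with an unadjusted p under 0.05 moved with single libraries. It was 0, 1 and 4 without KO replicate 1, 2 or 3. Without WT replicate 1, 2 or 3 it was 0, 3 and 1, and it was 4 under the replicate block by edgeR and by DESeq2. The share of all genes with such a p was not counted in these settings. Whether the members moved apart from all genes was therefore not tested. In bulk libraries, fewer cells making a transcript and less of it per cell cannot be told apart.

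**Figure D2:**
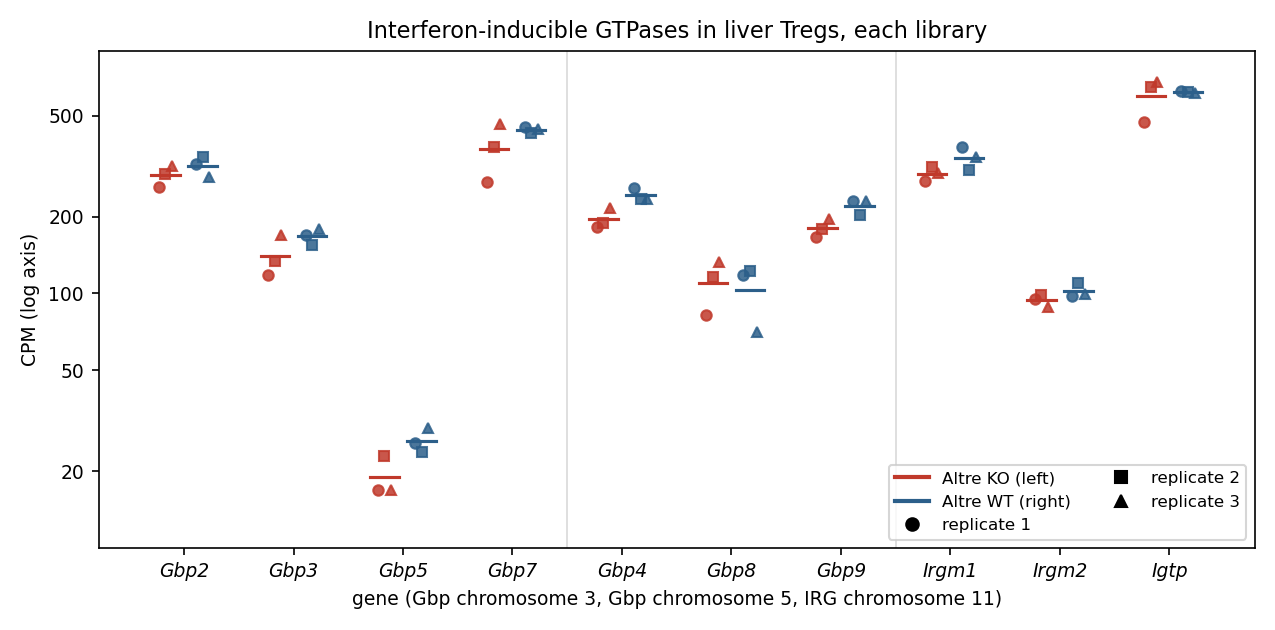
CPM of each GTPase in every library on a log axis, KO (red) left of WT (blue), with symbols for the replicate number and bars for the mean of 3 libraries; thin lines separate the chromosome 3, 5 and 11 clusters. Gbp4, Gbp5 and Gbp9 are the genes whose KO points all lie below their WT points, and KO replicate 1 is the lowest point of 7 genes.

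Gbp2 and Gbp5 are the members whose proteins carry a lipid anchor at their end and that promote inflammasome activation by bacteria in mouse macrophages. Gbp5 measured 16.9, 23.0 and 16.9 CPM in KO replicates 1, 2 and 3, against 25.8, 23.8 and 29.6 CPM in WT. All KO values lay below all WT values, although KO replicate 2 was within 1 CPM of WT replicate 2. Its log2 fold change was -0.48 ± 0.21 (SE; 95% interval -0.95 to -0.01; adjusted p = 0.849, edgeR), which was the most negative of the 10 at the lowest counts, 429 to 802 per library. Gbp2 measured 263, 296 and 317 CPM in KO, against 322, 344 and 286 CPM in WT. The genotypes overlapped, WT replicate 3 lying below KO replicates 2 and 3, and the log2 fold change was -0.12 ± 0.12 (SE; 95% interval -0.39 to 0.15). It was -0.05 without KO replicate 1, -0.07 without WT replicate 2 and -0.20 without WT replicate 3.

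Gbp7, which in mouse macrophages helps to assemble the NADPH oxidase on phagosomes, measured 275, 375 and 463 CPM in KO, against 451, 427 and 443 CPM in WT. The KO libraries were spread over a 1.68-fold range that reached past the WT libraries on both sides, while the WT libraries lay within a 1.06-fold range. The log2 fold change of -0.25 ± 0.17 (SE) became -0.07 without KO replicate 1 and -0.44 without KO replicate 3. Gbp3, its neighbour, measured 118, 134 and 169 CPM in KO, against 170, 155 and 180 CPM in WT. KO replicates 1 and 2 lay below every WT library and KO replicate 3 within the WT range, with a log2 fold change of -0.26 ± 0.15 (SE; 95% interval -0.60 to 0.07), which was -0.15 without KO replicate 1 and -0.42 without KO replicate 3.

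On chromosome 5, Gbp4, which in mouse cells restrains the interferon regulator IRF7, measured 182, 190 and 218 CPM in KO, against 260, 236 and 235 CPM in WT. Gbp9 measured 167, 180 and 196 CPM in KO, against 232, 203 and 230 CPM in WT. For both genes the 3 KO libraries lay below the 3 WT libraries, without overlap. Their log2 fold changes were -0.31 ± 0.12 for Gbp4 and -0.29 ± 0.12 for Gbp9 (SE), which are KO means lower by 19.3% and 18.4%, and the adjusted p was 0.842 for each (edgeR quasi-likelihood test, Benjamini-Hochberg). Both stayed negative in all 13 alternative settings, from -0.39 to -0.26 for Gbp4 and from -0.36 to -0.24 for Gbp9. Gbp8, in the same cluster, measured 82.1, 116 and 133 CPM in KO, against 118, 123 and 70.4 CPM in WT. The genotypes overlapped widely, WT replicate 3 being the lowest of the 6 and KO replicate 3 the highest. Its log2 fold change of 0.09 ± 0.23 (SE; 95% interval -0.43 to 0.61) turned to -0.13 without WT replicate 3 and to -0.06 without KO replicate 3.

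Irgm1, Irgm2 and Igtp (also called Irgm3) belong to the regulatory class of immunity-related GTPases, which sit on the cell's own membranes and keep the effector class from attacking them. Irgm1 measured 276, 313 and 298 CPM in KO, against 376, 307 and 343 CPM in WT. KO replicate 2 lay above WT replicate 2, so the genotypes overlapped, and the log2 fold change was -0.21 ± 0.12 (SE; 95% interval -0.47 to 0.05). It was -0.14 without WT replicate 1. Irgm2, which in mouse macrophages restrains the caspase-11 inflammasome, measured 95.4, 98.6 and 88.1 CPM in KO, against 97.7, 110 and 99.4 CPM in WT. KO replicate 2 lay above WT replicate 1, and the log2 fold change was -0.12 ± 0.12 (SE; 95% interval -0.40 to 0.16), or -0.08 without KO replicate 3 and -0.08 without WT replicate 2. Igtp, a protein of the endoplasmic reticulum needed for resistance to Toxoplasma, measured 474, 648 and 676 CPM in KO, against 626, 618 and 616 CPM in WT. KO replicate 1 lay below all other libraries and KO replicates 2 and 3 above all WT libraries, while the WT libraries differed by a factor of 1.02. The log2 fold change was -0.05 ± 0.14 (SE; 95% interval -0.35 to 0.26), and 0.10 without KO replicate 1. For Irgm2 and Igtp the intervals left room for a KO level 24.3% and 21.8% lower or 11.4% and 19.3% higher.

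**Figure D3:**
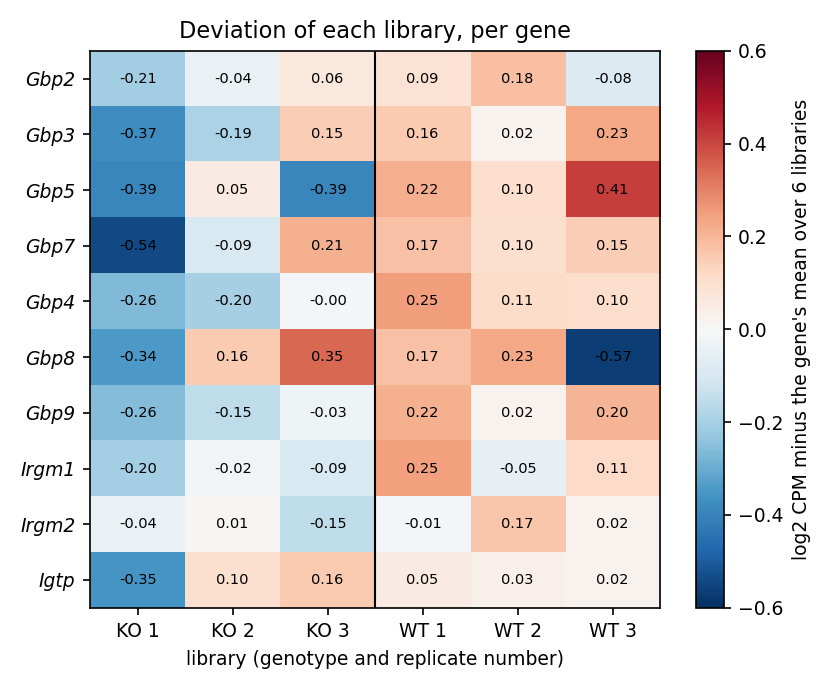
Each cell gives the log2 CPM of a gene in a library minus that gene's mean over the 6 libraries, KO libraries left of WT libraries, red above and blue below the mean. The column of KO replicate 1 is below 0 for all 10 genes, from -0.54 for Gbp7 to -0.04 for Irgm2.

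The KO libraries did not differ from WT evenly. The 10 genes together averaged -0.30, -0.04 and 0.03 log2 units from their means in KO replicates 1, 2 and 3, and 0.16, 0.09 and 0.06 in WT replicates 1, 2 and 3. KO replicate 1 was the lowest of the 6 libraries for 7 members, beside 16.2% of all genes. Without it 8 of 10 members were still lower in KO, their median log2 fold change being -0.14, and Igtp changed sign. The spread between libraries was larger in KO than in WT for 7 of the 10, with a median coefficient of variation of 13.9% in KO and 7.39% in WT. Among the 10690 genes averaging at least 50 counts, it was larger in KO for 50.2%. The smallest coefficient of variation was 0.915%, for Igtp in WT. The largest in KO was 25.3%, for Gbp7, and the largest of all was 27.9%, for Gbp8 in WT. KO replicate 1 had 236 CPM of summed macrophage and Kupffer cell markers, KO replicates 2 and 3 350 and 354 CPM, and WT libraries 194 to 224 CPM. Of the 12 such markers tested, 11 had a higher mean in KO, 5 of them with all KO libraries above all WT libraries, and C1qc a lower one. Over all genes tested, 5.6% had all KO libraries above all WT libraries. Clec4f, a further marker of these cells, was not among the genes listed. Vsig4 was at 0 in WT replicates 1 and 2 and Timd4 at 0 in WT replicate 2. C1qc, Vsig4 and Timd4 were named after their values were seen. The part of these cells in the GTPase values was not tested. The 2 endothelial markers tested had higher means in KO too, with sums of 139 to 158 CPM in KO and 95.7 to 126 CPM in WT. Pecam1 made nearly all of these sums, at 149 ± 9.16 CPM in KO and 110 ± 14.8 CPM in WT. Stab2 averaged 2.02 ± 1.17 CPM in KO and 1.49 ± 0.398 CPM in WT, with overlap. The endothelial markers Cdh5, Kdr, Lyve1 and Clec4g were not among the genes listed. B cell markers summed to 65.6 to 68.4 CPM in KO and 58.2 to 83.9 CPM in WT. Cd79b, named after its values were seen, made most of these sums, at 60.1 ± 2.96 CPM in KO and 64.9 ± 12.8 CPM in WT. Dendritic cell markers summed to 0.12 to 6.83 CPM in KO and 0.475 to 2.03 CPM in WT. NK and CD8 T cell markers summed to 43.2 to 48.8 CPM in KO and 34.8 to 37.0 CPM in WT, and neutrophil and monocyte markers to 33.5 to 35.1 CPM in KO and 26.5 to 47.6 CPM in WT. The 5 hepatocyte markers sought (Alb, Apoa1, Ttr, Serpina1c and Cyp2e1) were not among the genes listed, so they were not analysed here.

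**Figure D4:**
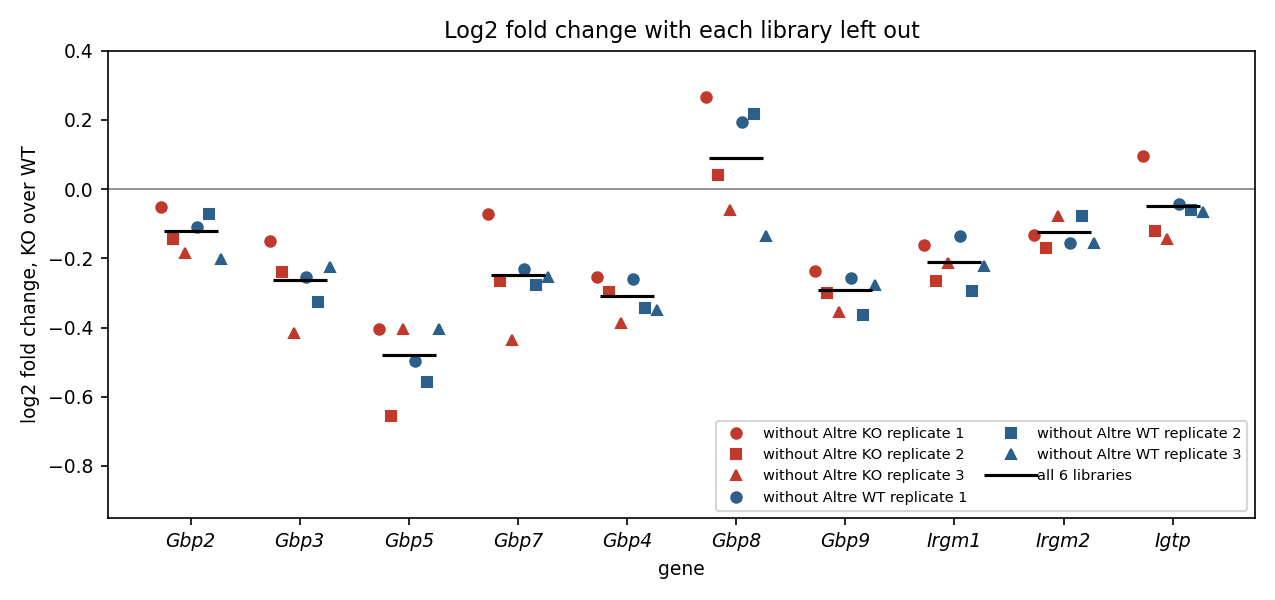
Log2 fold change (KO over WT) of each gene with all 6 libraries (black bars) and with each library left out in turn (red, a KO library left out; blue, a WT library left out). Gbp8 and Igtp are the genes with values on both sides of 0, and Gbp8 without WT replicate 3, at -0.13, is the point farthest from its black bar.

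The authors' deposited table gives the same directions, with 9 of 10 members lower in KO. In it 5 members (Gbp3, Gbp4, Gbp5, Gbp7 and Gbp9) have an unadjusted p under 0.05, beside 5.2% of all genes that do and are lower in KO. The authors' deposited table calls 247 genes (1.82%) at an adjusted p of 0.05 and no member, the lowest adjusted p of a member being 0.230 for Gbp4. Its unadjusted p for Gbp4 is 0.00975 (Wald test), beside 0.00956 by DESeq2 with the replicate block and 0.0165 by DESeq2 without it. The DESeq2 fit with the block called 247 genes too. The deposited values were thus close to those of that fit, though no label states a pairing.

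Of 13 further genes of the GBP, IRG, GVIN and Mx families in the table, 12 had a lower mean in KO and 1 a higher mean, beside 49.2% of all genes lower. Their median log2 fold change was -0.32, with 0 passing an adjusted p of 0.05 (edgeR). Those with an unadjusted p under 0.05 were Tgtp2 and Mx1, both lower in KO, beside 3.1% of all genes (edgeR). Tgtp2, an effector-class GTPase that attacks parasite vacuoles in mice, measured 240, 307 and 309 CPM in KO, against 367, 360 and 368 CPM in WT. The genotypes did not overlap, and the log2 fold change was -0.36 ± 0.12 (SE; adjusted p = 0.842, edgeR). Its near-identical copy Tgtp1 averaged 99.9 ± 17.6 CPM in KO and 116 ± 8.83 CPM in WT, and how reads were split between the copies is not known. Mx1, an antiviral GTPase made in answer to type I interferon, was at 1.18, 0.877 and 2.51 CPM in KO, against 5.97, 2.30 and 6.13 CPM in WT, with overlap and a log2 fold change of -1.65 ± 0.58 (SE). Ifi47, an effector-class member, averaged 502 ± 76.8 CPM in KO and 521 ± 2.13 CPM in WT, and Iigp1, of the same class, 228 ± 35.7 CPM in KO and 284 ± 53.5 CPM in WT. Gbp6 averaged 45.4 ± 9.003 CPM in KO and 52.6 ± 5.40 CPM in WT, Gbp10 20.9 ± 8.18 CPM in KO and 26.3 ± 2.32 CPM in WT, and Gbp2b, the 1 gene with a higher mean in KO, 36.9 ± 11.5 CPM in KO and 36.6 ± 4.90 CPM in WT. In each of these genes, and in Tgtp1, the libraries of the genotypes overlapped. Gm4951 averaged 32.0 ± 11.6 CPM in KO and 38.9 ± 5.26 CPM in WT, and Gm4841 12.3 ± 1.52 CPM in KO and 16.8 ± 5.65 CPM in WT. Gvin1 averaged 11.2 ± 0.603 CPM in KO and 13.2 ± 2.49 CPM in WT, Gm4070 8.37 ± 0.452 CPM in KO and 12.0 ± 2.91 CPM in WT, and Irgq 1.77 ± 1.11 CPM in KO and 2.60 ± 1.36 CPM in WT. Gm4070 was the gene among these 5 whose KO libraries all lay below its WT libraries, as was so for 4.67% of all genes.

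**Figure D5:**
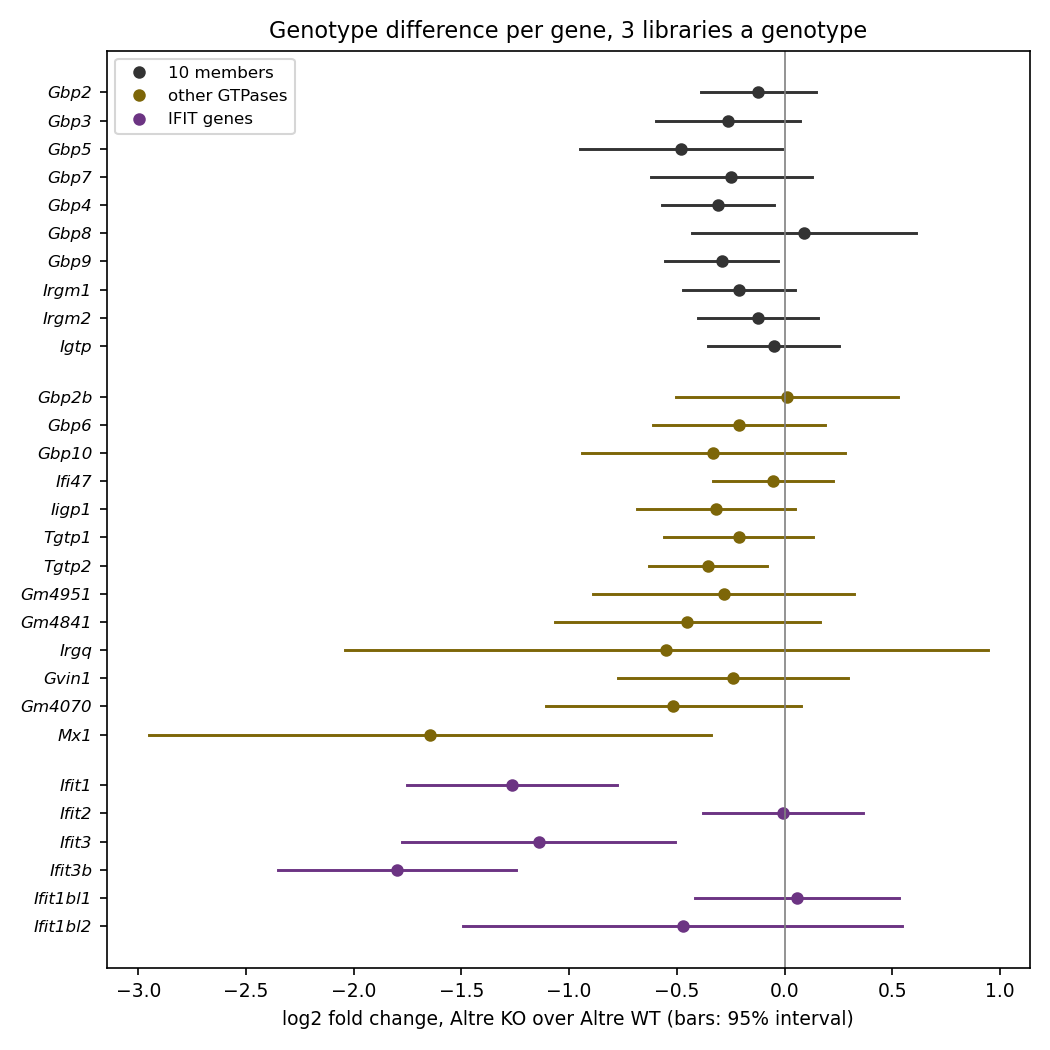
Log2 fold change (KO over WT) with its 95% interval from edgeR for the 10 members (black), 13 further GTPases (ochre) and 6 IFIT genes (purple). Most GTPases lie slightly left of 0 with intervals that include it, while Mx1, a further GTPase, lies at -1.65. Ifit1, Ifit3 and Ifit3b lie between -1.80 and -1.14, and Ifit2, Ifit1bl1 and Ifit1bl2 between -0.47 and 0.06.

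The IFIT genes, which encode proteins that bind viral RNA and answer mainly to type I interferon, had a median log2 fold change of -0.81 with 5 of 6 lower in KO. Among them Ifit3 measured 21.5, 19.5 and 37.4 CPM in KO, against 59.0, 41.6 and 72.5 CPM in WT. Ifit3b (-1.80 ± 0.25), Ifit1 (-1.27 ± 0.22) and Ifit3 (-1.14 ± 0.28; log2 fold change ± SE) were lower in every KO library than in any WT library, while Ifit1bl2 had -0.47 ± 0.46. Over all genes tested, 4.67% lay below in this way. Ifit2, counted as lower, had -0.006 ± 0.17 and Ifit1bl1 0.06 ± 0.21, both with overlap and both named after their values were seen. By limma-voom 4 of the 6 IFIT genes were lower in KO. None passed an adjusted p of 0.05 (edgeR, lowest 0.363). Ifit3 and Ifit3b are near-identical, so their reads may be split between them. The most negative lower bound of a 95% interval among the 10 GTPases was -0.95, for Gbp5. Whether the GTPases as a group differed less than the IFIT genes was not tested.

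Of 18 genes for the ligand, receptors and signalling of interferon gamma, 7 had a lower and 11 a higher mean in KO. The median log2 fold change was 0.01, with 0 passing an adjusted p of 0.05 (edgeR). Ifng, the ligand, was at 3.04, 6.82 and 17.04 CPM in KO, against 7.001, 6.30 and 11.4 CPM in WT, the KO range holding the whole WT range. Its receptor chain Ifngr1 averaged 569 ± 85.3 CPM in KO and 592 ± 40.1 CPM in WT. The other chain, Ifngr2, measured 42.1, 46.8 and 60.5 CPM in KO, against 33.3, 34.4 and 31.9 CPM in WT. All KO libraries lay above all WT libraries, with a log2 fold change of 0.59 ± 0.18 (SE; adjusted p = 0.842, edgeR). Jak2 averaged 32.4 ± 5.23 CPM in KO and 44.9 ± 4.86 CPM in WT, and Irf9, the DNA-binding part of the type I interferon complex, 265 ± 14.7 CPM in KO and 316 ± 20.9 CPM in WT, both without overlap. Over all genes, 4.67% had every KO library below every WT library and 5.6% every KO library above. Irf1, which binds ISRE elements, averaged 276 ± 18.1 CPM in KO and 262 ± 15.1 CPM in WT. Ifng, Ifngr1 and Irf1 were added after their values were seen.

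Of 22 other interferon gamma targets tested, 15 had a lower and 7 a higher mean in KO. Their median log2 fold change was -0.08, with 0 passing (edgeR, adjusted p). The 4 with the smallest p were Serpina3f, a protease inhibitor, at 24.0 ± 2.00 CPM in KO and 43.7 ± 23.3 CPM in WT, Parp14, an ADP-ribosyltransferase, at 58.3 ± 3.68 CPM in KO and 76.2 ± 8.34 CPM in WT, Wars, a tRNA synthetase, at 83.8 ± 9.21 CPM in KO and 67.5 ± 10.02 CPM in WT, and the chemokine gene Cxcl10 at 25.1 ± 3.91 CPM in KO and 35.6 ± 13.3 CPM in WT. For Serpina3f, WT replicate 3 stood at 70.6 CPM and the other WT libraries at 29.4 and 31.04 CPM, above all KO libraries.

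The GTPases depend on other proteins to reach their membranes. The conjugation machinery of ATG8 proteins directs them to vacuoles, and the adaptor Sqstm1 and the ubiquitin ligases Trim21 and Traf6 act there too. Of these 13 genes of vacuole targeting and ATG8 conjugation, all tested, 8 had a lower mean in KO, with a median log2 fold change of -0.05. Atg3, the enzyme that attaches ATG8 proteins to lipid, measured 31.8, 18.0 and 19.0 CPM in KO, against 90.0, 54.6 and 33.0 CPM in WT, a log2 fold change of -1.37 ± 0.35 (SE; adjusted p = 0.837, edgeR). The 3 KO libraries lay below the 3 WT libraries, with KO replicate 1 at 31.8 CPM and WT replicate 3 at 33.0 CPM close to each other. Atg7, the activating enzyme, averaged 47.0 ± 8.81 CPM in KO and 34.5 ± 7.055 CPM in WT, Gabarapl1 53.1 ± 4.24 CPM in KO and 61.2 ± 9.69 CPM in WT, and Atg16l1 41.5 ± 11.9 CPM in KO and 50.02 ± 4.39 CPM in WT.

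Prenylation enzymes attach the lipid anchors of Gbp2 and Gbp5. Of 5 tested, 2 had a lower and 3 a higher mean in KO, with a median log2 fold change of 0.01. Fnta, the subunit shared by both prenyltransferases, measured 10.8, 11.6 and 13.2 CPM in KO, against 56.2, 30.3 and 15.4 CPM in WT, a log2 fold change of -1.52 ± 0.39 (SE; adjusted p = 0.837, edgeR). Its partner for farnesylation, Fntb, averaged 30.3 ± 4.37 CPM in KO and 17.8 ± 2.68 CPM in WT, and its partner for geranylgeranylation, Pggt1b, 26.1 ± 2.10 CPM in KO and 35.5 ± 0.446 CPM in WT. For all 3 of these genes the genotypes did not overlap, beside 4.67% of all genes with KO below and 5.6% with KO above. Icmt, a later enzyme of the same path, averaged 9.93 ± 6.18 CPM in KO and 6.35 ± 2.41 CPM in WT. Among 8 inflammasome partners tested, 5 had a lower and 3 a higher mean in KO. Their median log2 fold change was -0.06, with 0 passing (edgeR, adjusted p). Casp4, which encodes caspase-11, averaged 78.5 ± 13.4 CPM in KO and 101 ± 8.94 CPM in WT, Il18 9.45 ± 3.49 CPM in KO and 7.02 ± 2.495 CPM in WT, Gsdmd, the pore former, 68.0 ± 4.33 CPM in KO and 73.4 ± 5.96 CPM in WT, and Il1b was at 0.355, 1.16 and 0.967 CPM in KO, against 0.552, 0 and 0 CPM in WT.

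The genes whose pattern over the 6 libraries was most like the mean of the 10 were Lsm14a, Ankhd1, Rsl1d1, Rdx and Atrx, among 10680 genes compared, with a root mean square difference of 0.0361 to 0.0534 log2 units. Gbp4 was the member closest to that mean at 0.0816, with 38 genes closer, and Gbp8 the farthest at 0.305, with 5779 genes closer. Each member was part of the mean it was compared with and the 10680 genes were not, which favours the members in these ranks. Lsm14a averaged 34.2 ± 3.64 CPM in KO and 38.0 ± 0.236 CPM in WT, and Rdx 156 ± 12.8 CPM in KO and 182 ± 11.5 CPM in WT.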

How the data were processed

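The members and lists were chosen with earlier results of these data known. Per the labels, the RNA came from an RNeasy Micro extraction and entered a SMARTER mRNA library preparation. The authors deposited whole-number counts per gene, a mean normalized count (a signal over the 6 libraries), a log2 fold change with standard error, a Wald statistic (a score) and a p-value with its adjusted form, per the file headers. Per the submitters' processing notes, cutadapt, STAR, DESeq2 and mm10 were used; the sources used here name no counting tool or strand setting. The deposited signal has a minimum of 5.96, so genes below it were not analysed here and the totals are not the full depth. In 18 rows (0.2945% to 0.3078% of counts) the name had become a date, and 13605 genes were used.

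The test was that of edgeR 4.0.16 under R 4.3.3 (TMM, filterByExpr, quasi-likelihood F test, genotype only), adjusted with Benjamini-Hochberg over 12789 genes and checked on simulated data. The standard error is the log2 fold change over the square root of F. Centred log2 CPM uses a prior count of 2. Alternatives were DESeq2 1.42.0, limma-voom (limma 3.58.1), other scaling factors, no filter, a replicate block and each library left out. No library repeated another: between any pair within a genotype the counts gave a chi-square of 40.4 to 73.0 per gene. Level per kilobase uses the union of annotated exons. Named genes are the members, all listed further GTPases, up to 4 genes of each list by smallest p, the 5 genes most like the members and 3 Treg genes; others are said to be chosen after their values were seen. A gene of the interferon gamma signalling list that this rule names is not reported here.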

Additional observations from a re-analysis of the deposited data

How the results depend on the processing

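Over 13 alternatives, 127 of 130 log2 fold changes of the GTPases kept their direction and none passed an adjusted p of 0.05, the lowest being 0.226 (Gbp4, DESeq2 with the replicate block). The exceptions came from leaving out a library, where Gbp8 ranged from -0.13 to 0.27 and Igtp from -0.14 to 0.10. The number of members lower in KO stayed between 8 and 10. The number with every KO library below every WT library ranged from 3 to 5 as single libraries were left out, while the share of all genes went up to between 8.59% and 12% in these smaller designs. The number of genes passing was 46 by DESeq2 and 0 to 1 with a library left out. Under the replicate block it was 16 by edgeR and 247 by DESeq2, with no member among them. Same-numbered libraries deviated together only weakly (correlations 0.108, 0.0822 and 0.0239), each correlating best with its own number, a hint from the data and not the design. With a library left out, the median log2 fold change ranged from -0.13 to -0.0133 for the genes of vacuole targeting and ATG8 conjugation and from -0.0811 to 0.0551 for inflammasome partners; the cause was not tested.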
